A study of Mus musculus with 16 samples.

Results

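CC chemokines are small secreted proteins that direct the movement of leukocytes, and 8 of their genes are described here: Ccl2, Ccl3, Ccl4, Ccl5, Ccl6, Ccl7, Ccl9 and Ccl12. They were picked by symbol out of the 55487 genes of the count table, and each of them stood on 1 line of it. The 16 libraries, 4 for each of 4 genotypes, came from right hippocampi of PBS-perfused females at 40 weeks of age. Wild-type (WT) mice carry neither alteration. CKO mice are knockouts of Ch25h, the gene of cholesterol 25-hydroxylase, which turns cholesterol into an oxysterol. T mice are PS19 transgenic mice with intact Ch25h; their transgene is the 1N4R form of human MAPT (tau) with the P301S mutation, transcribed from the PrP (prion protein) promoter. TCKO mice carry that transgene and lack Ch25h. The labels number the libraries and do not name the animals behind them. The p-values therefore rest on the spread from library to library, part of which may be technical. The title of the series concerns the place of Ch25h in inflammation and neurodegeneration in this tauopathy model, and the comparisons take up its inflammatory side for these chemokines.

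CC chemokines bind G protein-coupled receptors on monocytes, macrophages, microglia and T cells, and a ligand often uses several receptors. Ccl2, Ccl7 and Ccl12 are the monocyte chemoattractants and act mainly through Ccr2. Ccl3, Ccl4 and Ccl5 are inflammatory chemokines that draw macrophages and T cells. Ccl6 and Ccl9 are mouse chemokines that act through Ccr1. In the brain, activated microglia, astrocytes, border macrophages and infiltrating leukocytes are known sources.

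The tau transgene raised all 8 genes when Ch25h was intact, from 7.25-fold for Ccl9 to 45.7-fold for Ccl2. On the same transgenic background, loss of Ch25h lowered all 8, from 3.81-fold for Ccl9 to 18.3-fold for Ccl7. Without the transgene, loss of Ch25h changed none of them past the test. In mice without Ch25h the transgene raised Ccl4 and Ccl6, calls that were lost by limma voom or without any 1 CKO library, while the TCKO and CKO libraries of the other 6 genes overlapped. The spread of CPM over libraries is shown in the plot of each gene by genotype.

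**Figure D1:**
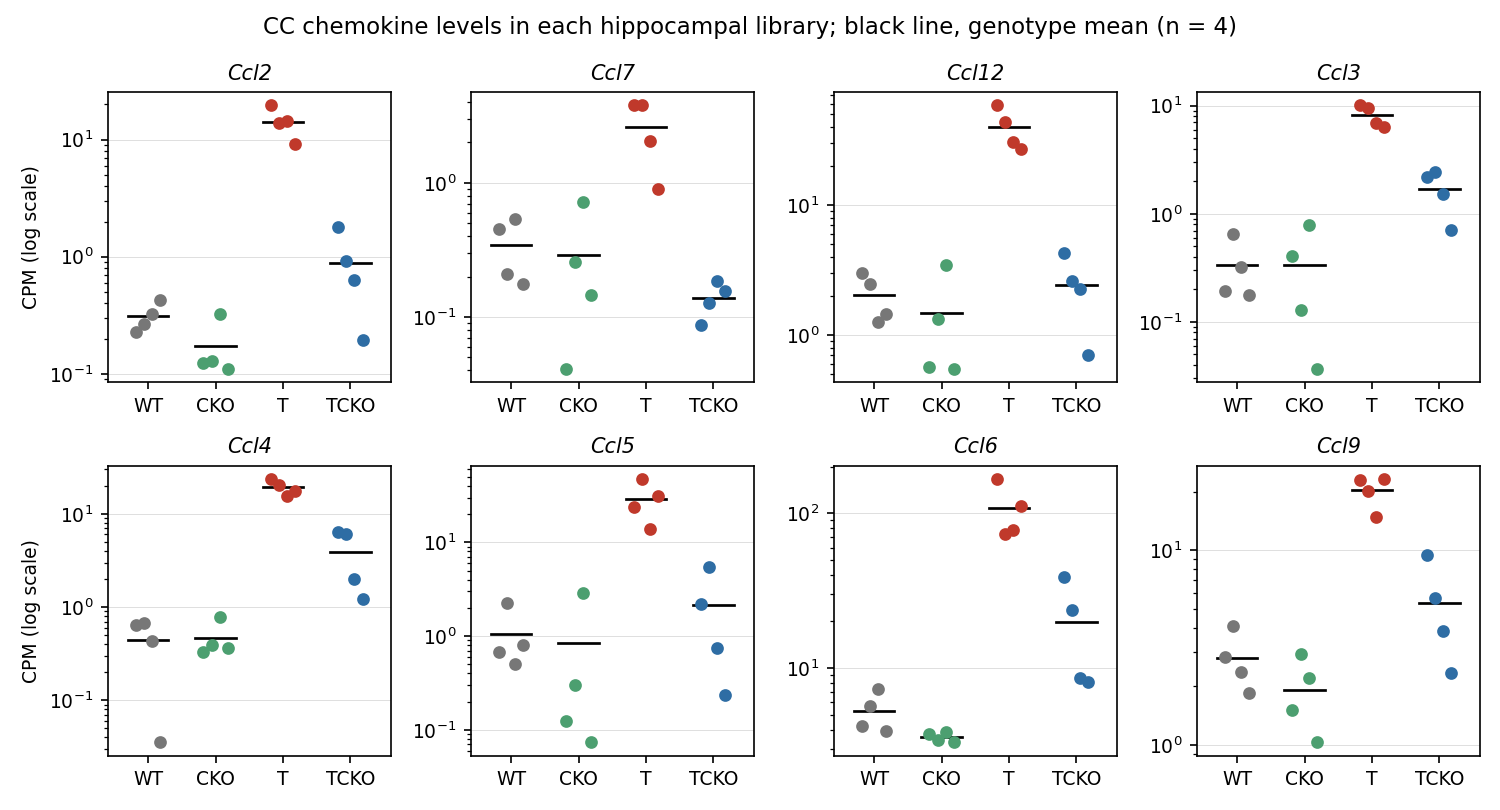
CPM (log axis) of each CC chemokine in every library, by genotype (points), with the mean of the 4 libraries (line). In every panel the 4 T libraries lie above the 4 WT and the 4 TCKO libraries, for example 9.21 to 19.7 CPM against 0.226 to 0.424 and 0.195 to 1.78 for Ccl2.

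All 8 genes lie on mouse chromosome 11 (GRCm38, GENCODE M21), in a pair of clusters. The first holds Ccl2 (82035571 to 82037453, plus strand, ENSMUSG00000035385), Ccl7 (82045712 to 82047525, plus strand, ENSMUSG00000035373) and Ccl12 (82101845 to 82103400, plus strand, ENSMUSG00000035352) within 67.8 kb. The second starts 1.42 Mb further on and spans 138.9 kb. It holds Ccl5 (83525778 to 83530518, minus strand, ENSMUSG00000035042), Ccl9 (83572919 to 83578636, minus strand, ENSMUSG00000019122), Ccl6 (83587882 to 83593087, minus strand, ENSMUSG00000018927), Ccl3 (83647844 to 83649355, minus strand, ENSMUSG00000000982) and Ccl4 (83662584 to 83664683, plus strand, ENSMUSG00000018930). Ccl6 and Ccl9 have 4 exons and the other members 3. No source used here states whether counting took strand into account. On the opposite strand Ccl2 overlaps Gm17268 (0 reads in every library) and Ccl6 overlaps E230016K23Rik (0 to 16 reads).

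RefSeq promoter windows on GRCm38.p6 matched 4 of the 8 members: Ccl3, Ccl6, Ccl9 and Ccl12. The windows of Ccl9 and Ccl12 are shown because, among those 4, these genes had the smallest and the largest fall with loss of Ch25h in transgenic mice (log2 fold changes of -1.93 and -4.03). Each is the 250 bases before the start site, 5′ to 3′ on the gene's strand, and capitals mark motif matches.
Ccl9, chr11:83578637-83578886, minus strand: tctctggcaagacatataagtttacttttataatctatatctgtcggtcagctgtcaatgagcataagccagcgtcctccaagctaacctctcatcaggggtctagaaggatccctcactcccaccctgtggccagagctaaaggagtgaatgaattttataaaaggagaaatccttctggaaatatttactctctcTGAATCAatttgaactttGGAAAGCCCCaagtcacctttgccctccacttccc
Ccl12, chr11:82101595-82101844, plus strand: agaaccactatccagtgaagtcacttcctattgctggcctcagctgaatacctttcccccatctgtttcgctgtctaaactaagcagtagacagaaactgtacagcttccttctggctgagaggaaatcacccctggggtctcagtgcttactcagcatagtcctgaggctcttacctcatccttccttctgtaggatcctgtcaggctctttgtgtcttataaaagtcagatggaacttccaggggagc
Motifs searched on both strands were the NF-kB consensus, the core of the interferon-stimulated response element (GAAA, any 2 bases, GAAA), the gamma-activated site TTCNNNGAA and the AP-1 site TGANTCA. The Ccl9 window holds an NF-kB match on its minus strand, 35 to 26 bases before the start, and an AP-1 match 53 to 47 bases before it. No match to these letters lies in the windows of Ccl12, Ccl6 and Ccl3. Among 32851 promoter windows of the same length, 7.25% hold the NF-kB consensus, 2.98% the interferon element core, 7.02% TTCNNNGAA and 6.75% TGANTCA. A match is a description of the letters and not a binding site.

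Library totals ran from 15.06 M reads (CKO replicate 4) to 34.35 M (WT replicate 2). The targeted gene Ch25h had 18 to 39.68 reads in WT, 132.93 to 299.64 in T, and at most 2 in a CKO and 1 in a TCKO library. General neuron markers were present in every library (summed level 5064 to 11148 CPM over 7 genes). WT replicate 1 and T replicate 4 stood apart with 7309 and 7695 CPM of choroid plexus markers, against at most 428 in the other 14 libraries, and the calls of chemokines, receptors, signalling genes and transcription factors that are lost without this pair are named. CPM is the count of a gene divided by the TMM-scaled library total in M, log2 fold changes are given ± SE from edgeR's quasi-likelihood test over all 16 libraries, and adjusted p-values are Benjamini-Hochberg values over the 18565 genes tested. A gene is called at an adjusted p under 0.05.

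The tau transgene with Ch25h intact, T against WT, raised 8 of 8 CC chemokines past the test, where 13% of all genes tested were called higher. Their T and WT libraries did not overlap for 8 of 8, against 13.3% of all genes. The median log2 fold change of the 8 was 4.46, and that of all genes was -0.01. Loss of Ch25h on the transgenic background, TCKO against T, lowered 8 of 8, where 8.05% of all genes were called lower. TCKO libraries lay below T libraries for 8 of 8, against 9.65% of all genes, and the median log2 fold change was -3.09 against 0.02. Both comparisons use the same 4 T libraries, so the values are set side by side and a high T library moves both. In whole tissue, fewer cells of a type and less RNA per cell cannot be told apart.

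Ccl2 is the main attractant of Ccr2-bearing monocytes. Its CPM was 0.226, 0.267, 0.324 and 0.424 in the WT libraries (7 to 12 reads each), and 0.123, 0.129, 0.325 and 0.11 in CKO. In T it was 19.7, 13.8, 14.4 and 9.21, and in TCKO 1.78, 0.919, 0.63 and 0.195. The T libraries were thus the only high ones, and 3 of the 4 TCKO libraries were above every WT library while TCKO replicate 5 was below all of them. The log2 fold change was 5.51 ± 0.49 for T against WT (adjusted p = 1.61e-06) and -4.02 ± 0.45 for TCKO against T (adjusted p = 3.57e-05).

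Ccl7 attracts monocytes and other leukocytes, and had the lowest TPM of the 8 in T mice. It had 0.452, 0.208, 0.54 and 0.177 CPM in WT and 0.041, 0.259, 0.716 and 0.147 in CKO, from 1 to 15 reads per library. The T libraries had 3.79, 3.77, 2.05 and 0.905 CPM, and the TCKO libraries 0.0867, 0.127, 0.185 and 0.156, which is 2 to 5 reads each. Ccl7 in TCKO was low in all 4 libraries, and 3 of them lay below every WT library. Its log2 fold change was 2.92 ± 0.61 for T against WT (adjusted p = 0.00243) and -4.19 ± 0.67 for TCKO against T (adjusted p = 0.00052).

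Ccl12 is a mouse monocyte chemoattractant with the highest TPM of the 3 in each genotype. Levels were 3, 2.46, 1.26 and 1.45 CPM in WT and 0.574, 1.34, 3.45 and 0.551 in CKO. In T they were 58.4, 43.4, 30.6 and 27.1, and in TCKO 4.25, 2.6, 2.26 and 0.702. TCKO and WT libraries overlapped, with T far above both. The log2 fold change was 4.28 ± 0.54 with the transgene (adjusted p = 2.90e-05) and -4.03 ± 0.53 with loss of Ch25h in transgenic mice (adjusted p = 0.000107).

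Ccl3, a macrophage inflammatory protein that binds Ccr1, had 0.194, 0.652, 0.324 and 0.177 CPM in WT and 0.41, 0.129, 0.781 and 0.0367 in CKO. It rose to 10.1, 9.53, 6.94 and 6.34 CPM in T, and was at 2.17, 2.41, 1.52 and 0.702 in TCKO. All 4 TCKO libraries therefore lay between the T and the WT libraries. The log2 fold change was 4.57 ± 0.58 for T against WT (adjusted p = 3.24e-05) and -2.27 ± 0.51 for TCKO against T (adjusted p = 0.0074).

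Ccl4, its neighbour on the chromosome and also a macrophage inflammatory protein, had 0.646, 0.682, 0.432 and 0.0353 CPM in WT and 0.328, 0.388, 0.781 and 0.367 in CKO. The T libraries held 23.8, 20.6, 15.4 and 17.7 CPM and the TCKO libraries 6.42, 6.11, 2 and 1.21. As for Ccl3, every TCKO library was above every WT library and below every T library. WT replicate 5 held a single Ccl4 read. The log2 fold change was 5.39 ± 0.59 (adjusted p = 6.79e-06) for T against WT and -2.30 ± 0.49 (adjusted p = 0.00507) for TCKO against T.

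Ccl5 is made by activated T cells as well as by myeloid cells and astrocytes, and binds Ccr1 and Ccr3. It had the widest spread between libraries in CKO and TCKO. WT libraries held 0.678, 2.25, 0.504 and 0.812 CPM, and CKO libraries 0.123, 0.302, 2.86 and 0.0735. In T it was 23.9, 47.6, 14 and 30.8, and in TCKO 2.21, 5.45, 0.741 and 0.234, a 23.3-fold range. T replicate 3 and TCKO replicate 3 were the highest of their groups. Its log2 fold change was 4.75 ± 0.91 for T against WT (adjusted p = 0.0013) and -3.73 ± 0.85 for TCKO against T (adjusted p = 0.00852).

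Ccl6, known as a macrophage and microglial product, had the highest TPM of the 8 in every genotype. It was at 4.23, 5.69, 7.31 and 3.95 CPM in WT and at 3.77, 3.41, 3.84 and 3.31 in CKO. The T libraries held 167, 73.6, 78.3 and 111 CPM, and TCKO 38.5, 23.7, 8.67 and 8.08. The 4 genotypes did not overlap at any border for this gene, in the order T, TCKO, WT and CKO. Its log2 fold change was 4.35 ± 0.45 for T against WT (adjusted p = 4.53e-06) and -2.45 ± 0.41 for TCKO against T (adjusted p = 0.000742).

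Ccl9, also a Ccr1 ligand of macrophages, had the smallest change in both comparisons. CPM values were 2.84, 4.09, 2.38 and 1.84 in WT and 1.52, 2.93, 2.21 and 1.03 in CKO. They were 22.9, 20.1, 14.9 and 23.3 in T and 9.45, 5.7, 3.86 and 2.34 in TCKO. TCKO overlapped WT at its low end, through replicates 4 and 5. The log2 fold change was 2.86 ± 0.39 for T against WT (adjusted p = 5.69e-05) and -1.93 ± 0.37 for TCKO against T (adjusted p = 0.00239).

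Loss of Ch25h removed different shares of the transgenic level. The fall from T to TCKO was 16.3-fold for Ccl2, 18.3-fold for Ccl7 and 16.3-fold for Ccl12, the 3 genes of the first cluster. In the second cluster it was 13.2-fold for Ccl5, 5.46-fold for Ccl6, 4.91-fold for Ccl4, 4.82-fold for Ccl3 and 3.81-fold for Ccl9. Differences between genes were not tested. Compared directly with WT as a description, TCKO libraries lay above all WT libraries for 3 of 8 members (Ccl3, Ccl4 and Ccl6), where 3.14% of all genes did so, and below them for 0 of 8, against 4.33%.

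Levels between genes were compared per length, in deposited TPM, which scales reads by transcript length. In WT, Ccl6 (8.1 ± 2.42, SD, n = 4) and Ccl12 (6.93 ± 2.96) led, followed by Ccl5 (3.63 ± 2.76), Ccl9 (2.25 ± 0.463), Ccl4 (1.12 ± 0.753), Ccl3 (0.721 ± 0.481), Ccl7 (0.686 ± 0.349) and Ccl2 (0.624 ± 0.162). Ccl12 and Ccl5, and Ccl9 and Ccl4, differed by more than the larger SD of the pair, the other neighbours in that order by less, and the order of means was the same in CKO. In T the order was Ccl6 (167 ± 66.1 TPM), Ccl12 (135 ± 47.5), Ccl5 (104 ± 56.4), Ccl4 (49.2 ± 9.98), Ccl2 (28.3 ± 7.85), Ccl9 (19.1 ± 4.57), Ccl3 (17.7 ± 4.22) and Ccl7 (5.24 ± 2.86). Ccl2, last in WT, ranked above Ccl9, Ccl3 and Ccl7 in T. In that order Ccl6 and Ccl12, Ccl12 and Ccl5, Ccl5 and Ccl4, and Ccl9 and Ccl3 differed by less than the larger SD of the pair, and the other neighbours by more. In TCKO, Ccl6 (32.9 ± 23.6 TPM) was followed by Ccl4 (10.6 ± 7.23), Ccl12 (8.83 ± 5.09), Ccl5 (8.06 ± 8.79), Ccl9 (5.19 ± 2.18), Ccl3 (3.85 ± 1.73), Ccl2 (1.8 ± 1.37) and Ccl7 (0.295 ± 0.0924). Only Ccl3 and Ccl2, and Ccl2 and Ccl7, differed there by more than the larger SD. Ccl12 made up 25.7% of the summed mean TPM of the 8 genes in T and 12.4% in TCKO, while Ccl6 made up 31.8% and 46%, as descriptions with no test.

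**Figure D2:**
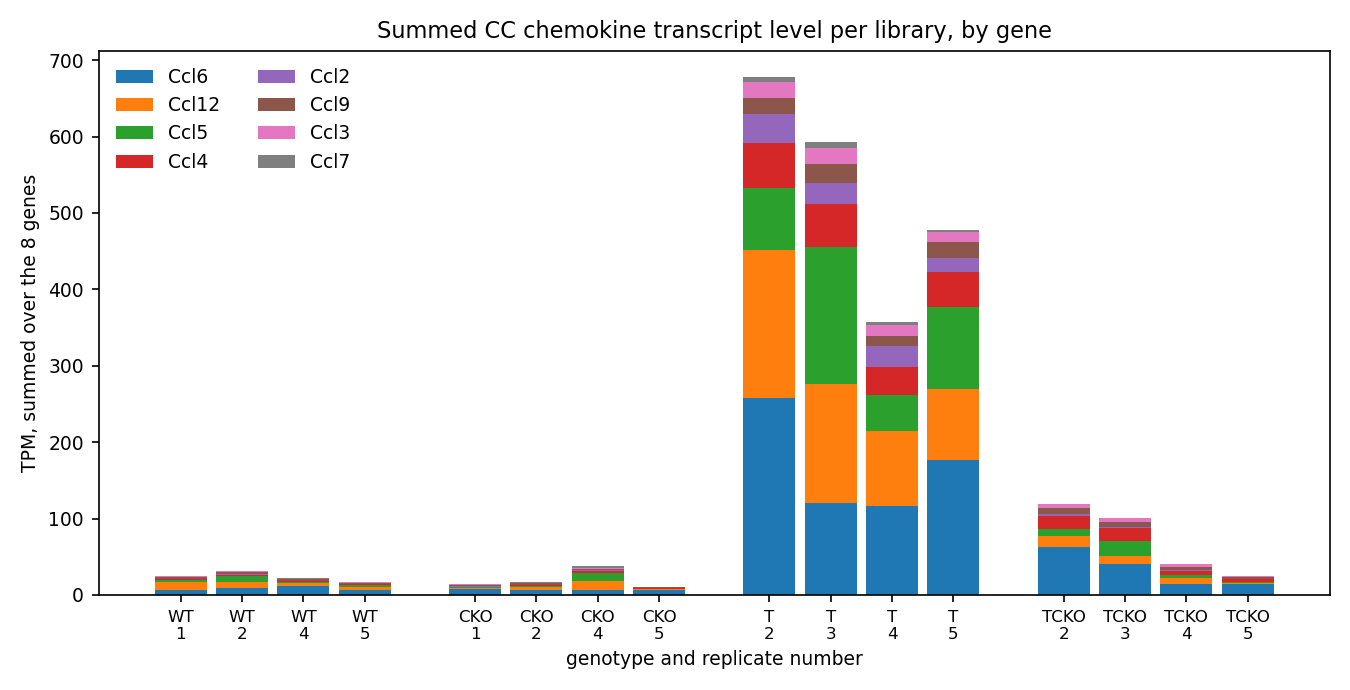
TPM summed over the 8 CC chemokines in each library (bar height), coloured by gene, for the 16 libraries by genotype and replicate number. Sums were 17 to 31.5 TPM in WT, 10.5 to 37.2 in CKO, 357 to 678 in T and 25.3 to 119 in TCKO, with Ccl6, Ccl12 and Ccl5 the largest parts of the T bars.

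In T, CKO and TCKO, 1 library stood at the same end for 6 or more of the 8 members, and in WT for at most 5. Deviations from the genotype mean correlated at 0.45 to 0.80 between members other than Ccl7. Those of Ccl7 correlated with the others at -0.06 (Ccl6) to 0.52 (Ccl12). T replicate 2 was the highest T library for 6 of 8 genes, Ccl5 being highest in T replicate 3 and Ccl9 in T replicate 5. TCKO replicate 5 was the lowest TCKO library for 7 of 8, the exception being Ccl7. The summed level of 12 microglia markers was also highest in T replicate 2 (3443 CPM, against 2605 to 2924 in the other 3) and lowest in TCKO replicate 5 (830 CPM, against 869 to 1452). TCKO replicate 2, highest of its group in these markers (1452 CPM), was the highest TCKO library for 5 of 8 members. CKO replicate 5, lowest of its group in them (671 CPM), was the lowest CKO library for 6 of 8. The low end of T and the ends of WT did not match. T replicate 3, lowest in these markers, was the lowest T library for 1 of 8 members. In WT the markers were highest in replicate 4 and lowest in replicate 1. There replicate 2 was highest for 4 of 8 members and replicate 5 lowest for 5 of 8. CKO replicate 4, the shallowest library, was the highest CKO library for 7 of 8 members, all but Ccl9. Its microglia markers were at 726 CPM, against 671 to 688 in the other CKO libraries.

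Loss of Ch25h without the transgene, CKO against WT, changed 0 of 8 members past the test by edgeR, DESeq2 or limma voom, and 0 of 8 had an unadjusted p under 0.05 by any of the 3. Among all genes, edgeR called 0.0108% lower (2 genes) and 0% higher, DESeq2 called 59 lower and 55 higher, and 1011 lower and 1087 higher had an unadjusted p under 0.05 in edgeR. Log2 fold changes of the members ran from -0.93 ± 0.61 (Ccl2, adjusted p = 0.589) to -0.03 ± 0.64 (Ccl4, adjusted p = 0.991). Ccl6 was the 1 member whose CKO libraries all lay below the WT libraries, against 4.06% of all genes, at -0.57 ± 0.44 (adjusted p = 0.658), and 0 of 8 lay above them, against 4.88%. Ccl2, Ccl3, Ccl4 and Ccl7 had 1 to 23 reads per library in these genotypes. Changes well beyond the reported SE could be missed at this depth, so the lack of a call does not show a lack of change.

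In mice without Ch25h, the transgene (TCKO against CKO) raised 2 of 8 members past the test, where 0.350% of all genes were called higher. They were Ccl4, at 3.13 ± 0.58 (adjusted p = 0.0265), and Ccl6, at 2.46 ± 0.44 (adjusted p = 0.024), and the same genes were the 2 whose libraries did not overlap, against 5.32% of all genes. Ccl2 (2.42 ± 0.56, adjusted p = 0.0609), Ccl3 (2.44 ± 0.60, adjusted p = 0.0682) and Ccl9 (1.48 ± 0.39, adjusted p = 0.082) had positive values that did not pass. Ccl5 was at 1.60 ± 0.95 (adjusted p = 0.399), Ccl12 at 0.82 ± 0.55 (adjusted p = 0.464) and Ccl7 at -0.92 ± 0.73 (adjusted p = 0.539). These calls moved with the tool and the libraries. DESeq2 called 5 of 8 and limma voom 0, and both edgeR calls were lost without any 1 of the 4 CKO libraries or without TCKO replicate 3 (adjusted p = 0.0612 to 0.104). Ccl4 was also lost without TCKO replicate 2 (adjusted p = 0.0566).

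The interaction asks whether the transgene's effect differed with and without Ch25h. By log2 fold change it was smaller without Ch25h for all 8 members, from -3.84 for Ccl7 to -1.38 for Ccl9, and it passed the test for 3 of 8, where 2.45% of all genes were called lower. The 3 were the monocyte chemoattractants of the first cluster: Ccl7 (-3.84 ± 0.94, adjusted p = 0.0346), Ccl12 (-3.45 ± 0.75, adjusted p = 0.0202) and Ccl2 (-3.09 ± 0.80, adjusted p = 0.045). Values for the second cluster were -3.15 ± 1.29 for Ccl5 (adjusted p = 0.196), -2.26 ± 0.81 for Ccl4 (adjusted p = 0.138), -2.13 ± 0.83 for Ccl3 (adjusted p = 0.17), -1.88 ± 0.59 for Ccl6 (adjusted p = 0.0901) and -1.38 ± 0.53 for Ccl9 (adjusted p = 0.171). The calls of Ccl2 and Ccl7 were lost without any of several single libraries and without the choroid-rich pair (adjusted p = 0.102 and 0.0581). Ccl2 lost its call without 13 of the 16 libraries, namely any WT or CKO library, T replicate 2, 3 or 4, or TCKO replicate 3 or 4 (-2.71 to -3.27, adjusted p = 0.0554 to 0.137). Ccl7 lost its call without 9 of the 16, namely WT replicate 2 or 5, CKO replicate 2 or 4, T replicate 2 or 3, or TCKO replicate 2, 3 or 5 (-3.02 to -3.90, adjusted p = 0.0552 to 0.101). Ccl12 lost its call without 1 library, CKO replicate 4 (-2.70, adjusted p = 0.0624). Limma voom called 0 of 8 (adjusted p = 0.0893 for Ccl2, 0.176 for Ccl7 and 0.0518 for Ccl12), with 6 of 8 at an unadjusted p under 0.05. DESeq2 called 5, adding Ccl4 and Ccl6.

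**Figure D3:**
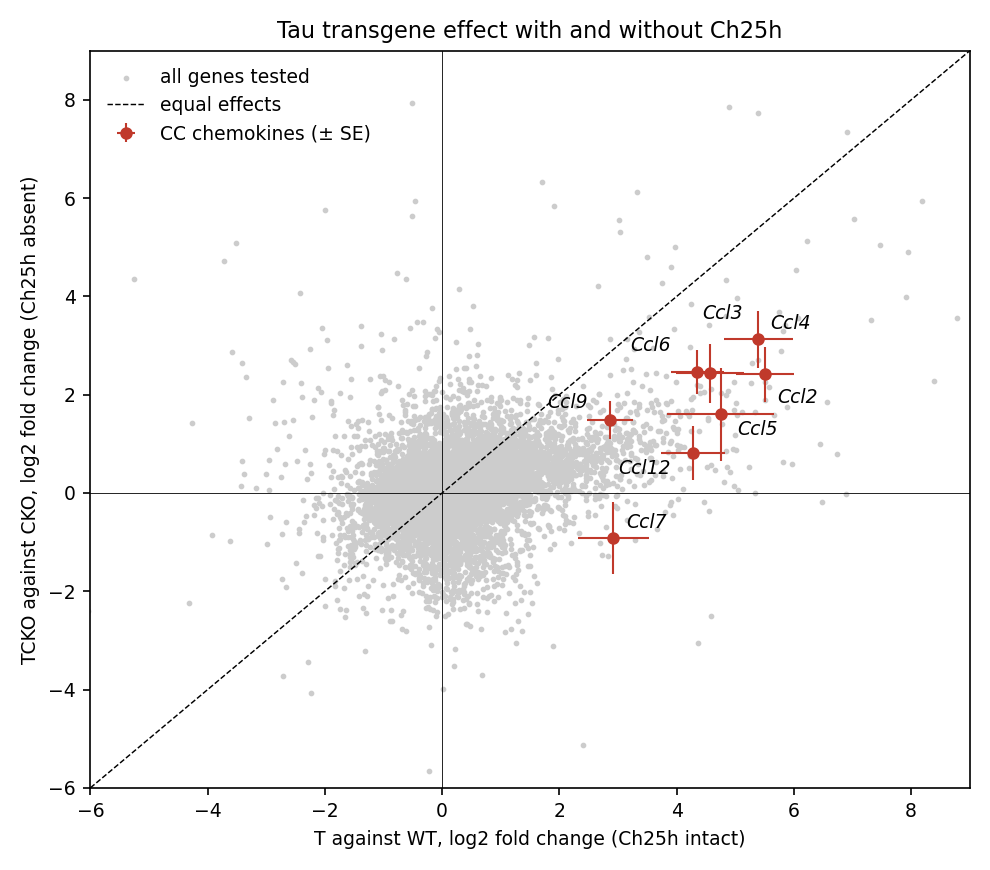
Log2 fold change of each gene with the tau transgene when Ch25h is intact (T against WT, horizontal axis) and when it is absent (TCKO against CKO, vertical axis), for the 18565 genes tested (grey) and the 8 CC chemokines (red, bars ± SE). All 8 lie right of zero and under the dashed line of equal effects, with Ccl4 highest at 3.13 and Ccl7 lowest at -0.92 on the vertical axis.

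Markers of several cell types moved with the chemokines. Of 12 microglia markers, 11 rose in T against WT (median log2 fold change 1.69) and 9 fell in TCKO against T (median -1.10), and their summed level was 601 to 840 CPM in WT, 671 to 726 in CKO, 2605 to 3443 in T and 830 to 1452 in TCKO. None of the 12 was at 0 in any genotype. Divided by microglia marker reads in the same library, 7 of 8 chemokines were still higher in every T than in every WT library, where 1.24% of all genes were, and the exception was Ccl7. On that ratio TCKO lay below T for 7 of 8, all but Ccl9, against 1.32% of all genes. Ccl6 had 6.34 to 8.7 reads per 1000 microglia marker reads in WT, 4.93 to 5.54 in CKO, 26.8 to 48.6 in T and 9.74 to 26.5 in TCKO. For Ccl12 the ratio was 1.5 to 5 in WT, 9.72 to 17 in T and 0.847 to 2.93 in TCKO. The marker genes themselves changed with genotype, so the ratio is a scale and not a count of cells, and on it 83.0% of all genes were lower in every T than in every WT library and 70.4% higher in every TCKO than in every T library. TCKO stayed above CKO without overlap for Ccl4 and Ccl6, against 0.307% of all genes.

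T cell markers were scarce and followed a similar pattern, with 10 of 11 higher in T and 7 of 11 lower in TCKO against T. Their summed level was 4.86 to 6.42 CPM in WT, 4.55 to 6.47 in CKO, 17 to 28.7 in T and 4.6 to 8.21 in TCKO. The highest library of each transgenic group, T replicate 3 (28.7 CPM) and TCKO replicate 3 (8.21 CPM), was also the highest for Ccl5. Other libraries did not follow this: T replicate 5, lowest of its group in T cell markers (17 CPM), came next for Ccl5 (30.8 CPM). In WT and CKO the T cell markers were highest in replicates 1 and 2, and Ccl5 in replicates 2 and 4. The T cell receptor component Cd3d was at 0 in all 4 CKO libraries. Of 9 border macrophage and monocyte markers tested, Ms4a7, Ly6c2 and Ccr2 rose in T and 5 of 9 fell in TCKO against T, with a summed level over 10 genes of 9.78 to 12.3 CPM in WT, 4.18 to 9.83 in CKO, 17.5 to 48.3 in T and 6.09 to 8.46 in TCKO. The highest T library for this sum was the choroid-rich T replicate 4 (48.3 CPM), with T replicate 2 next at 31.3 CPM. Astrocyte markers rose for 5 of 8 in T and fell for 5 of 8 in TCKO against T, their summed level being 3928 to 4530 CPM in WT, 3572 to 3907 in CKO, 9862 to 13059 in T and 4061 to 7092 in TCKO. Of 7 NK cell markers 1 was tested and rose in T (Klrb1c), and of 7 neutrophil markers 3 were tested and 1 rose (S100a9), with none lower in TCKO against T. NK cell markers summed to at most 3.82 CPM and neutrophil markers to at most 4.43 CPM in any library. Of 7 neuron markers 3 fell in T against WT (Snap25, Syt1 and Tubb3) and 2 rose in TCKO against T (Snap25 and Camk2a), and their summed level was 8430 to 9514 CPM in WT, 9392 to 10341 in CKO, 5064 to 8058 in T and 7758 to 11148 in TCKO. Of 7 endothelial markers 2 rose in T (Flt1 and Cldn5) and 2 fell in TCKO against T (Flt1 and Ly6c1), with summed levels of 106 to 134 CPM in WT, 113 to 144 in CKO, 135 to 188 in T and 100 to 132 in TCKO. Of 6 oligodendrocyte markers 2 rose in T and none fell in TCKO against T, at 3482 to 15369 CPM in WT, 5193 to 8692 in CKO, 9903 to 21618 in T and 13163 to 17396 in TCKO. The part of each cell type in the chemokine values was not tested.

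Among 16 other CC chemokine symbols, which the table lists under 22 gene identifiers, 10 identifiers of 8 genes were tested. Of these 2 rose in T against WT and 2 fell in TCKO against T, Ccl8 and Ccl19 in both, while the median log2 fold changes were 0.33 and 0.08. Ccl8, a monocyte chemoattractant that lies beside Ccl12 in the first cluster, had 0, 0.326, 0.324 and 0.0353 CPM in WT and 0.0819, 0.0431, 0.325 and 0 in CKO. It had 3.12, 2.6, 11 and 1.22 CPM in T and 0.304, 0.127, 0.0741 and 0.039 in TCKO. The T libraries were all above the rest, T replicate 4 most. Its log2 fold change was 4.66 ± 0.91 for T against WT (adjusted p = 0.0015) and -5.03 ± 0.94 for TCKO against T (adjusted p = 0.00199). Ccl19, which binds Ccr7 and guides lymphocytes and dendritic cells, had a log2 fold change of 2.06 ± 0.48 in T against WT (adjusted p = 0.00525) and fell in TCKO against T (adjusted p = 0.0116), from 2.8 ± 1.32 to 0.696 ± 0.311 CPM. The first call was lost without the pair of choroid-rich libraries (adjusted p = 0.0505), and reads may be shared with a second identifier of the same symbol. Ccl27a, known from skin keratinocytes and listed under several near-identical identifiers, and Ccl25, a ligand of Ccr9, were not called in either comparison. The main Ccl27a identifier was at 48.3 ± 3.54 CPM in WT and 39 ± 4.86 in T, and Ccl25 at 8.13 ± 0.714 and 7.76 ± 1.04 (n = 4 each).

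Of 11 CC chemokine receptor genes described here, 4 had enough reads to be tested, of which 3 rose in T against WT and 2 fell in TCKO against T. Ccr9, the receptor of Ccl25, was called in neither (0.47 ± 0.70, adjusted p = 0.689, and -0.56 ± 0.71, adjusted p = 0.659). Ccrl2, an atypical receptor-like protein that binds chemerin, rose by 1.92 ± 0.36 (adjusted p = 0.00111) and fell by 1.52 ± 0.35 on the log2 scale (adjusted p = 0.00956). Its CPM was 1.36, 1.96, 1.91 and 1.02 in WT, 2.13, 1.94, 0.586 and 0.955 in CKO, 7.07, 7.95, 4.83 and 3.93 in T, and 2.69, 2.12, 1.48 and 1.99 in TCKO. The T libraries were above all others, and TCKO overlapped WT and CKO.

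Ccr2, the monocyte receptor of Ccl2, Ccl7 and Ccl12, was scarce. Its CPM was 0.355, 0.386, 0.288 and 0.494 in WT, 0.041, 0.345, 0.521 and 0.11 in CKO, 1.24, 0.989, 1.82 and 0.781 in T, and 0.26, 0.158, 0.519 and 0.156 in TCKO. T libraries were above all others. Log2 fold changes were 1.66 ± 0.54 for T against WT (adjusted p = 0.0332) and -2.13 ± 0.56 for TCKO against T (adjusted p = 0.0189). The first call was lost with replicate number as a block (1.39, adjusted p = 0.105), without any 1 WT library, and without T replicate 2 or 4 (adjusted p = 0.0541 to 0.103), and the choroid-rich pair (0.165). The second was lost without T replicate 4, TCKO replicate 2 or TCKO replicate 5 (adjusted p = 0.0515 to 0.0679), or the choroid-rich pair (0.0691). Part of the reads of Ccr2 are fractional, so it shares reads with another gene in the authors' counting.

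Ccr1, which binds Ccl3, Ccl5, Ccl6, Ccl7 and Ccl9, was at 0.387, 0.623, 0.576 and 0.282 CPM in WT and 0.205, 0.0431, 0.39 and 0.0735 in CKO. It was at 2.83, 0.623, 2.72 and 1.44 in T and 0.954, 1.11, 0.0741 and 0.273 in TCKO. T replicate 3 was no higher than the highest WT library. The log2 fold change was 2.01 ± 0.67 for T against WT (adjusted p = 0.0375) and -1.65 ± 0.66 for TCKO against T, which did not pass (adjusted p = 0.112). The first call was lost with replicate number as a block (2.02, adjusted p = 0.0785), without any 1 WT library and without T replicate 2 or 4 (adjusted p = 0.0551 to 0.116), and without the choroid-rich pair (0.164). Ccr3, the eosinophil receptor of Ccl5 and Ccl7, had 0 to 4 reads per library and was not tested. Ccr4 was at 0 reads in all 16 libraries, while Ccr6, Ccr7, Ccr8, Ccr10 and Ccr1l1 had at most 32 reads over the 4 libraries of a genotype.

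**Figure D4:**
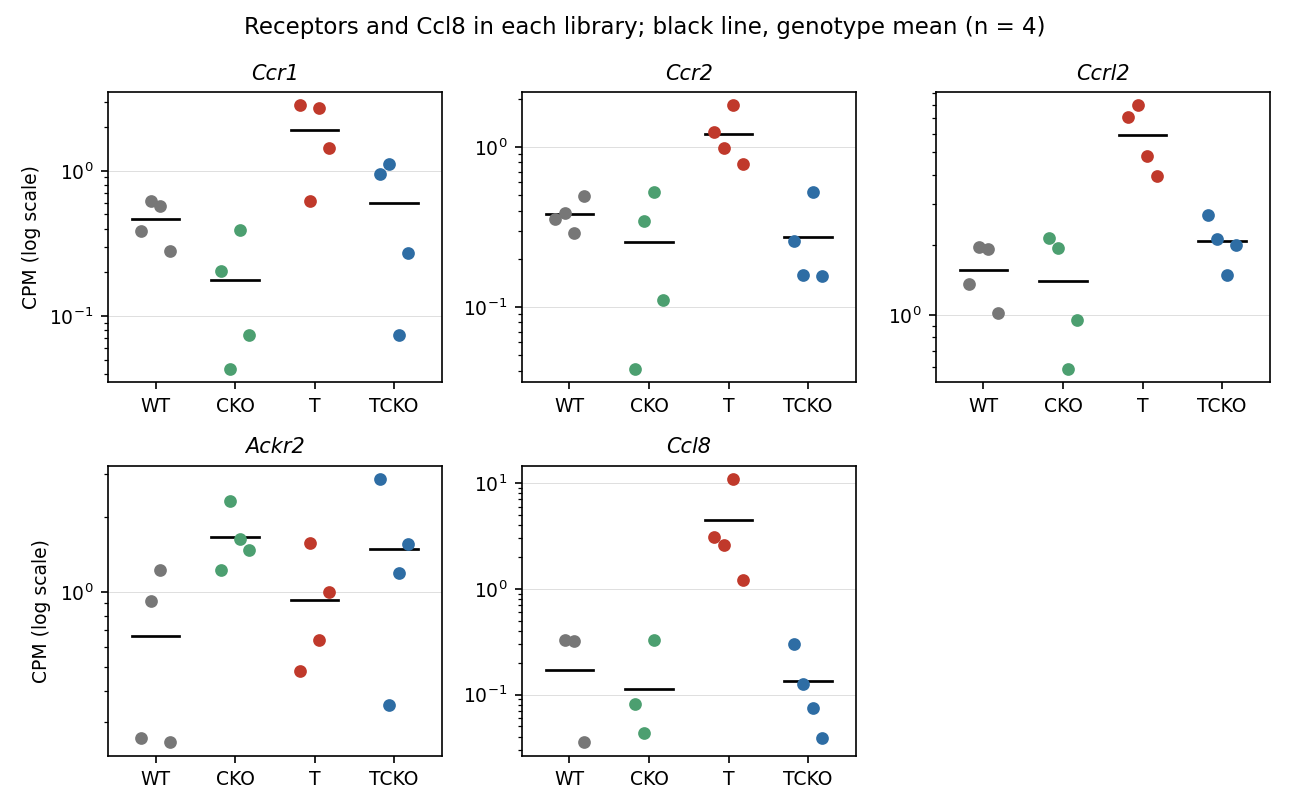
CPM (log axis) of the receptors Ccr1, Ccr2 and Ccrl2, the scavenging receptor Ackr2 and the chemokine Ccl8 in every library (points), with the mean of 4 (line). Libraries at 0 CPM are not drawn, which are WT replicate 1 and CKO replicate 5 for Ccl8. T libraries are above all others for Ccr2, Ccrl2 and Ccl8, while for Ccr1 and Ackr2 they overlap WT and TCKO libraries. Every CKO library of Ackr2 is above every WT library.

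The atypical receptors Ackr1 to Ackr4 bind chemokines without signalling through G proteins, and Ackr2 takes up and degrades inflammatory CC chemokines. By edgeR 0 of 4 were called in T against WT or in TCKO against T, and DESeq2 and limma voom also called 0. At an unadjusted p under 0.05 edgeR had 1 of 4 lower in T against WT and 0 in TCKO against T. In CKO against WT it called 0 of 4, and 1 of 4 was higher at an unadjusted p under 0.05, as were 1087 of 18565 genes. Ackr2 was at 0.258, 0.919, 1.22 and 0.247 CPM in WT, 1.23, 2.33, 1.63 and 1.47 in CKO, 0.478, 1.58, 0.64 and 0.999 in T, and 2.86, 0.349, 1.19 and 1.56 in TCKO. Every CKO library of Ackr2 lay above every WT library, as for 4.88% of all genes. Its log2 fold change was 0.47 ± 0.60 for T against WT (adjusted p = 0.622) and 0.68 ± 0.58 for TCKO against T (adjusted p = 0.481).

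Of 18 genes of receptor signalling and its brakes, 7 rose in T against WT and 0 fell, while 6 fell and 2 rose in TCKO against T, where 4.81% of all genes rose. Their median log2 fold changes were 0.25 and -0.28. Rgs1, a brake on G protein signalling in leukocytes, had log2 fold changes of 3.14 ± 0.39 (adjusted p = 2.37e-05) and -2.39 ± 0.37 (adjusted p = 0.000422). Rac2, the leukocyte GTPase of migration, was at 2.66 ± 0.25 (adjusted p = 2.15e-06) and -1.65 ± 0.24 (adjusted p = 0.000216). Dock2, the exchange factor that activates it, was at 2.45 ± 0.31 (adjusted p = 3.39e-05) and -1.95 ± 0.31 (adjusted p = 0.000456). The other risers were Pik3cg, Stat3, Gnai2 and Rgs10, and Pik3cg, Stat3 and Gnai2 also fell. The fall of Gnai2 (-0.76 ± 0.19, adjusted p = 0.0154) was no longer called without T replicate 2, TCKO replicate 2 or TCKO replicate 5 (-0.58 to -0.66, adjusted p = 0.0539 to 0.0705), and that of Pik3cg (-1.15 ± 0.30, adjusted p = 0.0192) without T replicate 2 or TCKO replicate 5 (-1.04 and -1.15, adjusted p = 0.0685 and 0.0525). Neither fall was called with only the groups compared (adjusted p = 0.0557 for Gnai2 and 0.0794 for Pik3cg). Gnai3, Grk2, Elmo1 and Grk6 were among the genes that passed neither test. The 2 that rose in TCKO against T were the kinase Ptk2b (0.69 ± 0.19, adjusted p = 0.0264) and the arrestin Arrb1 (0.30 ± 0.09, adjusted p = 0.0475), and Arrb1 lost its call under 23 of 27 alternatives, among them 14 of the 16 single libraries left out and the choroid-rich pair left out. Ptk2b lost its call without T replicate 2, T replicate 3, TCKO replicate 2 or TCKO replicate 5, and with only the groups compared (adjusted p = 0.0703). In T against WT Ptk2b was at -0.52 and not called by the main fit, but DESeq2 called it lower (adjusted p = 0.0456). So did edgeR without WT replicate 1 (adjusted p = 0.0315), T replicate 5 (0.0385) or the choroid-rich pair (0.0368).

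Of 14 transcription factors known at CC chemokine promoters, 10 rose in T against WT, 7 fell in TCKO against T, and none moved the other way past the test. Median log2 fold changes were 0.81 and -0.52. The interferon regulatory factors Irf8 and Irf7, the latter a main driver of interferon genes, had 3.64 ± 0.22 (adjusted p = 7.45e-08) and 3.33 ± 0.44 (adjusted p = 4.78e-05) with the transgene. With loss of Ch25h in transgenic mice they had -2.45 ± 0.21 (adjusted p = 7.58e-06) and -3.37 ± 0.44 (adjusted p = 0.000106). Spi1, the myeloid factor PU.1, was at 3.77 ± 0.33 (adjusted p = 1.56e-06) and -2.04 ± 0.30 (adjusted p = 0.000279). NF-kB subunits moved less than Irf8, Irf7 and Spi1. Nfkb1 was at 0.97 ± 0.18 (adjusted p = 0.000917) and -0.69 ± 0.18 (adjusted p = 0.017), and Rela at 0.68 ± 0.14 (adjusted p = 0.00192) and -0.26 ± 0.14 (adjusted p = 0.224). Relb, at 1.08 and -0.48, passed the first test alone. Irf3 (0.69 and -0.56) and Stat2 (0.91 and -0.95) of the same list also moved less than Irf8, Irf7 and Spi1. Some calls rested on single libraries. That of Nfkb1 in TCKO against T was lost without T replicate 2, TCKO replicate 2 or TCKO replicate 5, with values of -0.57, -0.59 and -0.64 (adjusted p = 0.0744, 0.0571 and 0.0582). That of Irf3 (-0.56 ± 0.15, adjusted p = 0.0218), a driver of interferon genes, was lost without T replicate 2 (-0.42, adjusted p = 0.101) or TCKO replicate 5 (-0.54, adjusted p = 0.0664). The calls of Nfkb1 and Irf3 were also lost with only the groups compared (adjusted p = 0.0634 and 0.0614). From log2(TPM + 0.1) they were lost as well (0.0531 and 0.0995). The NF-kB subunit Nfkb2, at 0.62 ± 0.21 in T against WT (adjusted p = 0.0438), lost its call under 11 of 27 alternatives. They were only the groups compared, thinning, the choroid-rich pair left out (0.50, adjusted p = 0.183), and WT replicate 1 or 5, CKO replicate 2, T replicate 2, 3 or 4, or TCKO replicate 2 or 5 left out (adjusted p = 0.0514 to 0.138). In the interaction 7 of 14 were called lower, against 2.45% of all genes.

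The chromosome around the clusters was described with a margin of 200 kb, a window chosen after the data were seen. It holds 30 tested genes beside the 8, of which 11 rose (36.7%) and 2 fell in T against WT (11.2% of all genes fell), and 6 fell (20%) and 1 rose in TCKO against T. Their median log2 fold changes were 0.10 and -0.02. Between the clusters lies the Schlafen family, interferon-inducible genes of lymphocytes and myeloid cells, and Slfn5, Slfn9, Slfn8 and Slfn2 rose and fell. Slfn5 had 1.97 ± 0.25 (adjusted p = 3.32e-05) and -2.24 ± 0.26 (adjusted p = 3.93e-05). Slfn1, at 3.02 ± 0.83 (adjusted p = 0.0173) and -2.28 ± 0.79 (adjusted p = 0.074), passed the first test alone. Wfdc17, a whey acidic protein family gene of macrophages next to Ccl4, had 3.06 ± 0.43 (adjusted p = 7.89e-05) and -2.92 ± 0.43 (adjusted p = 0.000248). Other genes of the window had values near 0, such as Lig3, a DNA ligase, at -0.15 ± 0.13 and 0.16 ± 0.13, and Heatr6 at -0.04 ± 0.10 and 0.02 ± 0.11.

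**Figure D5:**
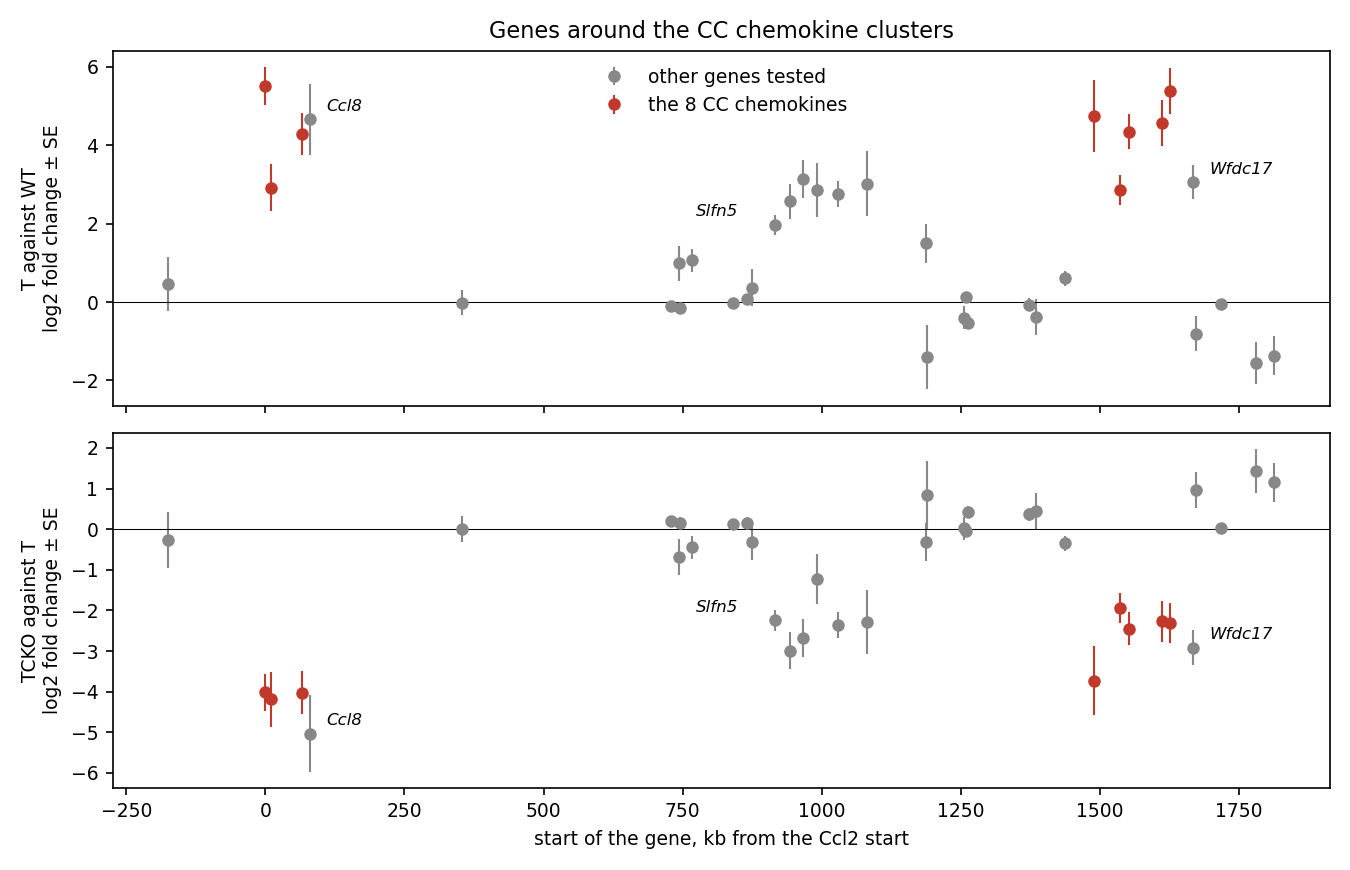
Log2 fold change ± SE of the genes tested around the CC chemokine clusters, against the distance of the gene's start from the Ccl2 start in kb, for T against WT (top) and TCKO against T (bottom), with the 8 members in red. Members and Ccl8, Wfdc17 and the Schlafen genes between the clusters stand away from 0, while most other genes lie near it. Asic2, whose start lies beyond the left edge, is not drawn.

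The genes whose level was most like each member were found by Pearson correlation of log2 CPM over the 16 libraries, among 13795 genes at 1 CPM or more in a group mean. All of them share the same 16 libraries, among which the T libraries were the high ones, and they carry no test. Ccl2 was most like Cd68, a lysosomal protein of phagocytes (r = 0.992), S100a6 (0.991) and the microglial Aif1 (0.986). Ccl7 was most like the interferon-inducible GTPases Tgtp2 (0.943) and Iigp1 (0.923), and Aff1 (0.920). Ccl12 was most like Cxcl10, an interferon-inducible chemokine (0.983), Ly9 (0.977) and Slc39a1 (0.975). Ccl3 followed the checkpoint receptor Pdcd1 (0.980), the niacin receptor Hcar2 (0.977) and Cd180 (0.965). For Ccl4 the nearest were the lectin receptor Clec7a (0.975), Naip2 (0.967) and Fermt3 (0.965). Ccl5 was most like Irf9 (0.960), Nmi (0.954) and Parp9 (0.951), genes of the interferon response. For Ccl6 they were the complement receptor C3ar1 (0.991), Clec7a (0.989) and Capg (0.989). Ccl9 followed Cd74, the class II invariant chain (0.980), Timp1 (0.978) and Cybb, the phagocyte oxidase subunit (0.977).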

How the data were processed

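RNA of the right hippocampus was sequenced after an oligo-dT SMARTer Ultra Low preparation, per the labels' protocols. The submitters' processing notes name bcl2fastq, STAR 2.5.1a, Subread's featureCounts 1.4.6-p5 and GRCm38 and do not say what each did. The authors deposited estimated counts and TPM for every gene; per the file headers, the column names are those of salmon output. No source used here names the quantifier or the annotation. The table's 55774 lines hold 55487 genes after 287 repeats were dropped, and all 128 values of the 8 members are whole.

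Rounded estimated counts went into edgeR 4.0.16 (R 4.3.3), with TMM, filterByExpr, a mean per genotype over 16 libraries, quasi-likelihood F-tests in 5 contrasts and Benjamini-Hochberg adjustment at 0.05. SE is the log2 fold change divided by the square root of F. All 8 members passed the filter. Library totals were 15.06 M to 34.35 M reads, and precision depends on this depth, the reads of each gene and the spread between libraries. The fit was tested on simulated data with known changes. Named were the 8 members, Ccr1, Ccr2, Ccr3, Ackr2, list members called in T against WT or TCKO against T or at 1 CPM or more, and the 3 genes most like each member; part of them is printed, and some items are not reported here. Likeness left out gene models named Gm or Rik, names ending in -ps, and ribosomal and mitochondrial genes. The members and lists were chosen with earlier results of these data known. The neighbourhood, the ratio to microglia marker reads and the ranges of TCKO against WT were added after the data were seen, and promoters were cut to 250 bases so that no transcribed base is shown. A PU.1 core motif outside the motif list was also searched, and was dropped after its matches were seen.

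Replicate numbers were checked for pairing by correlating, for each shared number, how both libraries deviated from their own genotype mean. Between WT and T all 3 values passed 0.1 (0.12, 0.14 and 0.30), so the blocked fit is given beside that comparison where a call changes. Alternatives were DESeq2 1.42.0, limma 3.58.1 (voom, and log2 of TPM + 0.1), other normalizations and filters, only the groups compared, the block, thinning to about the shallowest total, and leaving out each library or the choroid-rich pair.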

Additional observations from a re-analysis of the deposited data

Results flagged for a closer look

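In CKO mice 1 library, replicate 4, stood above the other 3 past an outlier cutoff for 3 of the 32 groups of 4 values examined (8 genes in 4 genotypes). For independent normal values chance gives about 1 in 20 groups. Here counts are low and all 3 come from the same library, so that rate is not a fair measure. Ccl5 was at 2.86 CPM there and at most 0.302 in the others. Ccl4 was at 0.781 CPM against 0.388, and Ccl2 at 0.325 against 0.129. This is the shallowest library, at 15.06 M reads, and the counts are small. It held 44 reads of Ccl5 against 2 to 7 in the other CKO libraries, 12 of Ccl4 against 8 to 10, and 5 of Ccl2 against 3 in each. The part of depth in these values was not tested.

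The transgene's effect differed between mice with and without Ch25h, by the interaction test, for Ccl2 (-3.09), Ccl7 (-3.84) and Ccl12 (-3.45, all log2 fold changes from edgeR). Ccl2 did not pass without any 1 of 13 of the 16 libraries (adjusted p = 0.0554 to 0.137) and Ccl7 without any 1 of 9 (adjusted p = 0.0552 to 0.101). None of the 3 passed without CKO replicate 4, where Ccl2 was at -2.71 (adjusted p = 0.137), Ccl7 at -3.02 (0.101) and Ccl12 at -2.70 (0.0624).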

How the results depend on the processing

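In T against WT and TCKO against T all 8 members kept their direction and their call under every alternative that tested them, and a filter of 1 CPM in 4 libraries removed Ccl7 and left 7. With the replicate block no member changed its call in these comparisons or in the interaction.

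In TCKO against CKO 2 members were called higher. DESeq2 and no filter on low counts called 5, log2(TPM + 0.1) called 1, and limma voom and the replicate block called 0 (with the block, Ccl4 at an adjusted p of 0.0835 and Ccl6 of 0.0879), and leaving out single libraries gave 0 to 5. Leaving out TCKO replicate 5 added Ccl2, Ccl3 and Ccl9. All genes called higher were 65, against 507 by DESeq2, 29 by limma voom, 184 without a filter, 187 with only the groups compared, 28 from TPM, 4 with the replicate block and 10 to 166 without single libraries. In the interaction 3 members and 455 genes were called lower, against 5 and 860 by DESeq2, 0 members by limma voom and 1 without the choroid-rich pair. Single libraries left out gave 0 to 3 members and 248 to 725 genes. In CKO against WT 2 genes were called lower, against 59 by DESeq2, 1 by limma voom, by only the groups compared and by TPM, 0 with the replicate block, and 0 to 3 without single libraries.

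Uncalled values of CKO against WT turned positive for 4 members. Leaving out single libraries gave -1.19 to 0.04 for Ccl7, -0.83 to 0.42 for Ccl3, -0.41 to 0.24 for Ccl4 and -2.70 to 0.11 for Ccl5, where the lowest values came without CKO replicate 4 (Ccl7, Ccl3, Ccl5) or WT replicate 5 (Ccl4). Ccl3 was at 0.01 when thinned, and at 0.13 and 0.29 without CKO replicate 2 or 5. Ccl4 was at 0.00 with DESeq2 and when thinned, 0.01 with only the groups compared, 0.02 with library totals, 0.11 with the replicate block, 0.16 without the choroid-rich pair, 0.39 with limma voom and 0.52 from TPM. It was at 0.03, 0.06, 0.10 and 0.18 without CKO replicate 2, CKO replicate 5, CKO replicate 1 or WT replicate 1. The cause was not tested. Few reads in WT and CKO limit these values.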
